A study of Mus musculus with 16 samples.

Results

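Blood vessels of the liver and kidney were followed here through 40 genes of endothelial cells, picked by name from the 32989 genes of the deposited tables, 7 of them markers of the liver sinusoid (Stab1, Stab2, Lyve1, Clec4g, Oit3, Gpr182 and Dnase1l3) and 33 of endothelium in general. All 40 were found, each as 1 row. The mice were male C57BL/6J animals with no genetic change named, kept for 85 weeks and aged 97 weeks. The LD-conditioned mice (L63, L65, L86 and L104) had light from 8:00 to 20:00, and for the ADV-conditioned mice (A75, A91, A94 and A115) the light cycle was moved forward by 8 h every 4 days. Poly(A)-selected RNA of the liver and of the kidney of each of the 8 mice was sequenced, giving 16 libraries with 4 in each of the 4 groups. Levels are FPKM, fragments divided by the exon length of the gene and by the size of its library, so that levels of different genes are comparable per length.

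The sinusoids of the liver are lined by endothelial cells that have pores and no continuous basement membrane and that take up waste molecules from the blood through scavenger receptors. Endothelial cells in general are held together by VE-cadherin and other junction proteins, receive VEGF, angiopoietin and BMP signals through dedicated receptors, and keep blood from clotting. When activated they display selectins and ICAM-1, to which leukocytes attach.

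A liver and a kidney stood apart from the other libraries over all genes. The liver of A94 had a mean Pearson r over genes of 0.941 with the other livers, which had 0.977 to 0.982, and the kidney of A115 had one of 0.858, where the other kidneys had 0.932 to 0.964. In the liver of A94, 10 of 10 lymphocyte markers and 10 of 11 macrophage markers were at their highest of the 8 livers, with summed levels of 86.5 FPKM for lymphocytes (4.02 to 7.64 in the others) and 880.1 FPKM for macrophages (184 to 289 in the others). The kidney of A94 also had 10 of 10 lymphocyte markers at their highest, with a sum of 102 FPKM against 7.46 to 15.95. It had 9 of 11 macrophage markers at their highest as well, with a sum of 424 FPKM against 29.4 to 204. It was the highest of the 8 kidneys in 14 of the 37 endothelial genes tested there (37.8%), where 26.2% of all genes were, and the lowest in 1 (2.70%), where 5.60% were. In the kidney of A115, mitochondrial transcripts took 33.8% of the fragments, against 9.43% to 18.02% in the other kidneys, and 7 of 8 tubule markers were at their lowest. Hepatocyte markers summed to 58227 to 71716 FPKM in the livers and tubule markers to 1498 to 4606 FPKM in the kidneys, and Slc34a1, Slc22a6 and Slc12a1 of the tubule were at 0 in every liver. Each liver had 21092501 to 24285055 fragments on genes and each kidney 15688495 to 18043306. In whole tissue, fewer endothelial cells and less RNA of a gene per endothelial cell cannot be told apart. Sequencing was done by a pair of providers on different instruments, and which library came from which is not given in the sources used here, so the provider cannot be told apart from the groups.

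The 7 sinusoidal genes had a higher mean level in the liver than in the kidney in both conditions, and all but Stab1 passed the test. Clec4g (LSECtin, a lectin of the sinusoid; chromosome 8, 3716071 to 3720651, minus strand, mm10) was the most abundant of the 40 genes per length in the liver, at 40.9, 43.6, 42.1 and 41.1 FPKM in L63, L65, L86 and L104 and 50.4, 45.3, 30.1 and 59.8 FPKM in A75, A91, A94 and A115. In the kidney, Clec4g had 2 fragments in L86, 1 in A94 and 0 in the other 6 mice. With so few fragments only a counting interval can be set on the ratio of liver to kidney, which was 1846 (exact Poisson 95% interval 511 to 15240) in the LD mice and 4241 (761 to 167495) in the ADV mice. These intervals cover counting error only.

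Oit3, another gene of sinusoidal cells, was at 7.30 to 12.1 FPKM in the 8 livers and 0.0216 to 0.281 FPKM in the 8 kidneys, a difference between the organs of 5.86 ± 0.28 (SE, adjusted p = 7.1e-11) on the log2(FPKM + 0.1) scale by limma in the LD mice and 5.35 ± 0.28 (SE, adjusted p = 2.4e-10) in the ADV mice. Since the kidney level rested on 1 to 15 fragments, the size of the difference depended on the pseudocount and the method, from 3.24 with a pseudocount of 1 to 7.17 with limma-voom in the LD mice. The scavenger receptor Stab2 was at 3.07 to 5.74 FPKM in the livers and 0.141 to 0.400 FPKM in the kidneys, with log2 differences of 3.57 in the LD mice (1.903 with a pseudocount of 1) and 3.26 in the ADV mice. Stab1, a related scavenger receptor that macrophages also make, differed least. Its level was 2.45 to 4.78 FPKM in the livers and 0.507 to 4.30 FPKM in the kidneys, so that the organs overlapped, with log2 differences of 0.91 ± 0.47 (SE, adjusted p = 0.101) and 0.59 ± 0.47 (SE, adjusted p = 0.296) in the LD and ADV mice by limma. Without mouse A115, the LD difference of Stab1 had an adjusted p of 0.00143 by limma, and the log2 difference in the ADV mice was −0.22. A115 is an ADV mouse and enters the LD test through the spread that the libraries of the fit share. With all mice, Stab1 passed the test by limma in both conditions after median ratio scaling (log2 differences of 1.69 and 1.30), quantile normalization (1.91 and 1.43) and GC correction (0.97 and 0.57).

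Dnase1l3, a secreted nuclease that sinusoidal cells and macrophages make, was at 7.41 to 12.6 FPKM in the livers. In the kidneys it was at 0.391, 0.427, 0.567 and 0.172 FPKM in the LD mice and 0.376, 0.382, 5.59 and 0.537 FPKM in the ADV mice, with A94 far above the others. Macrophage markers summed to 424 FPKM in the kidney of A94 and 29.4 to 204 FPKM in the other kidneys, and their part was not tested. Lyve1, a hyaluronan receptor of sinusoidal and lymphatic endothelium, was at 2.35, 1.01, 2.53 and 2.35 FPKM in the LD livers and 1.14, 2.57, 7.55 and 2.01 FPKM in the ADV livers, and at 0.0198 to 0.410 FPKM in the kidneys. The receptor Gpr182 was at 9.47 to 15.1 FPKM in the livers and 1.11 to 6.20 FPKM in the kidneys. Over the 7 genes, 6 were higher in the liver with an adjusted p under 0.05 by limma in the LD mice and 6 in the ADV mice, beside 11.0% and 11.2% of all genes, Stab1 being the other one in both. Their summed level was 76.6 to 86.4 FPKM in the LD livers, 75.9 to 111 FPKM in the ADV livers, 3.86 to 5.60 FPKM in the LD kidneys and 2.73 to 13.7 FPKM in the ADV kidneys.

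**Figure D1:**
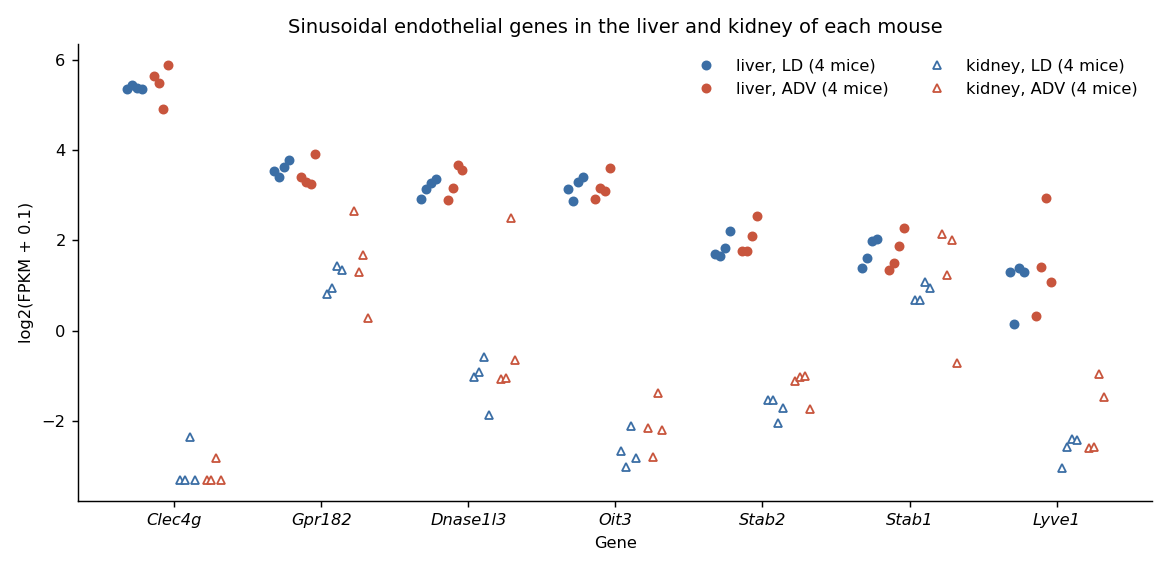
Level of each of the 7 sinusoidal genes on the log2(FPKM + 0.1) scale, with 1 point per mouse, filled circles for the liver and open triangles for the kidney, blue for LD and red for ADV (4 mice each). Clec4g, Oit3, Stab2 and Lyve1 lie apart in the 2 organs in all 8 mice, whereas for Stab1 the kidneys of A75 and A94 reach the levels of the livers.

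Of the 32 general endothelial genes tested across both organs, 2 were higher in the liver and 16 higher in the kidney in the LD mice with an adjusted p under 0.05 by limma, and their median log2 difference was −1.15 (5 and 10 genes and −0.39 after scaling by the median ratio). Of the 39 genes tested across both organs (Sele lay below the minimum level), 24 had an adjusted p under 0.05 by limma in the LD mice, 8 of them higher in the liver and 16 higher in the kidney. Of all 14379 genes tested, 11.0% were higher in the liver and 55.3% higher in the kidney by the same rule. In the ADV mice 22 had such a p, 9 higher in the liver and 13 higher in the kidney, beside 11.2% and 51.2% of all genes. The median log2 difference of the 39 genes was −0.79 in the LD mice, and that of all genes was −0.79 as well. After scaling by the median ratio the median of all genes moved to −0.03, and 12 genes were then higher in the liver and 10 higher in the kidney with an adjusted p under 0.05 in the LD mice, beside 3597 of all genes and 4236 (29.5%). Without mouse A115 the numbers called were 34 in the LD mice and 32 in the ADV mice, where 79.6% and 78.2% of all genes were called. The LD levels do not include A115, and leaving it out acts on the LD tests through the rest of the fit, which shares its estimate of the spread.

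Among the 33 general genes, Prox1 and Nostrin were higher in the liver in both conditions. Prox1, a transcription factor of lymphatic endothelium and also of hepatocytes, was at 7.23 to 21.1 FPKM in the livers and 0.366 to 2.04 FPKM in the kidneys, a log2 difference of 3.48 ± 0.37 (SE, adjusted p = 6.9e-07) in the LD mice by limma. Nostrin (nitric oxide synthase trafficker; chromosome 2, 69135800 to 69189330, plus strand) was at 6.36 to 11.1 FPKM and 1.41 to 4.27 FPKM, with log2 differences of 1.81 in the LD mice and 2.04 in the ADV mice. Ehd3, a membrane trafficking protein that was second in level in the liver, passed the test in the ADV mice, with 1.02 ± 0.30 (SE, adjusted p = 0.00751) by limma, and had 0.59 ± 0.30 (SE, adjusted p = 0.0924) in the LD mice.

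Emcn (endomucin, a mucin of capillaries and veins; chromosome 3, 137341078 to 137431069, plus strand) had the highest mean level of the 40 genes over the 8 kidneys, while Plvap exceeded it in A75, A91 and A94. Emcn was at 60.9, 58.7, 62.2 and 58.6 FPKM in L63, L65, L86 and L104 and 62.5, 43.6, 41.4 and 76.0 FPKM in A75, A91, A94 and A115, and at 2.04 to 3.70 FPKM in the livers, a log2 difference of −4.52 ± 0.20 (SE, adjusted p = 2.4e-11) in the LD mice by limma. Cd34, a sialomucin of capillary endothelium, was at 11.1 to 19.7 FPKM in the kidneys and 0.632 to 6.02 FPKM in the livers, with log2 differences of −3.72 in the LD mice and −2.64 in the ADV mice. The organs did not overlap for either gene.

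Aplnr, the apelin receptor, had 0 fragments in 6 livers, 1 in A75 and 5 in A94, against 0.249 to 1.78 FPKM in the kidneys. Thrombomodulin (Thbd), which turns thrombin into an anticoagulant, was at 0.675 to 1.36 FPKM in the livers and 6.60 to 11.1 FPKM in the kidneys, with a log2 difference of −3.16 ± 0.22 (SE, adjusted p = 5.2e-09) in the LD mice by limma. Sox17, a transcription factor of arterial endothelium, was at 0.143 to 0.559 FPKM and 1.63 to 3.01 FPKM, with a log2 difference of −2.64 ± 0.27 (SE, adjusted p = 6.4e-07) by limma. The receptors of VEGF had unlike estimates, which were not tested against each other. Flt1 (VEGF receptor 1) was lower in the liver by 2.30 on the log2 scale in the LD mice, Kdr (receptor 2) had −0.57 ± 0.23 (SE, adjusted p = 0.0426) and Flt4 (receptor 3) had 0.62 ± 0.29 (SE, adjusted p = 0.0753) by limma. The call of Kdr was lost with the mouse as a replicate block (adjusted p = 0.111 by limma), while Sox18 and Icam2 gained one in the LD mice and Icam1 and Nrp1 in the ADV mice. Over the alternatives the LD difference of Kdr ranged from −0.70 to 0.24, with the other sign in 3 of 22 and a call in 11. That of Flt4 ranged from 0.44 to 1.62, with a call in 8. Median ratio scaling and quantile normalization each dropped the call of Kdr and gave Flt4 one. Of the angiopoietin receptors, Tek (TIE2) was at 1.82 to 3.16 FPKM in the livers and 7.63 to 10.4 FPKM in the kidneys, and Tie1 at 1.98 to 4.79 FPKM and 1.79 to 10.7 FPKM. Tek did not overlap between the organs, and Tie1 did through the kidney of A115.

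**Figure D2:**
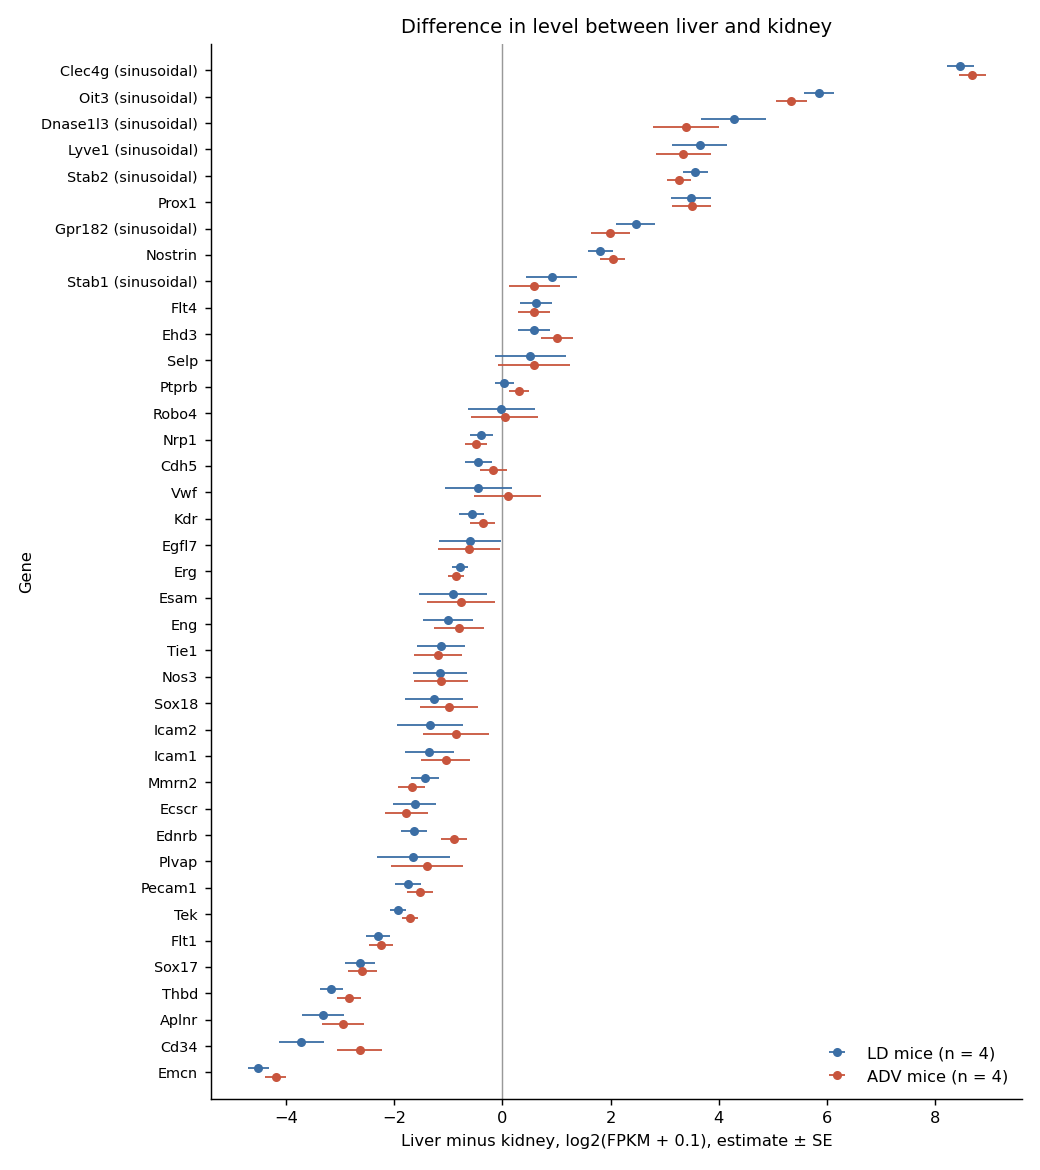
Difference between liver and kidney for the 39 genes tested, as log2(FPKM + 0.1) in the liver minus the kidney with its standard error, blue for the 4 LD mice and red for the 4 ADV mice, ordered by the LD value. Clec4g, Oit3, Dnase1l3, Lyve1, Stab2 and Prox1 head the genes higher in the liver, and Emcn, Cd34, Aplnr and Thbd those higher in the kidney, in the same direction in both conditions.

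Partners of these genes from lists of the same pathways differed between the organs as well. In the LD mice 11 of 12 ligands tested had an adjusted p under 0.05 by limma, 1 higher in the liver and 10 higher in the kidney, beside the 11.0% and 55.3% of all genes given above. The one higher in the liver was Gdf2 (BMP9, a ligand of the endoglin pathway made in the liver), at 6.16 to 13.0 FPKM in the livers and at 0 in every kidney but that of A115. The largest difference towards the kidney was that of Slit2, a guidance ligand of the Robo receptors, at −4.95. Among further sinusoidal genes 8 of 11 tested had such a p, 7 of them higher in the liver and 1, Wnt9b, higher in the kidney. Fcna (ficolin A) led these at 26.1 to 44.4 FPKM in the livers and 0 to 2.31 FPKM in the kidneys.

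In the liver, none of the endothelial genes tested passed the threshold between ADV and LD mice. Of the 38 tested (Sele and Aplnr lay below the minimum level), 0 had an adjusted p below 0.05 by limma, where 0.00779% of all 12835 genes did, and 2, Nostrin and Cd34, had an unadjusted p under 0.05, where 11.8% of all genes did. Of the 38, 27 had a higher and 11 a lower mean in the ADV mice on the log2(FPKM + 0.1) scale, as all such counts are given. Of all 12835 genes, 65.75% had a higher mean. With GC correction 22 of the 38 had a higher mean, beside 51.4% of all genes. The median log2 fold change was 0.18 for the 38 genes beside 0.10 for all genes. Marker sums of other cell types were also higher in every ADV liver than in every LD liver, at 250.4 to 880.1 against 184 to 244.0 FPKM for macrophages, 5.79 to 86.5 against 4.02 to 5.35 FPKM for lymphocytes, 166 to 365 against 121 to 138 FPKM for stellate cells and fibroblasts and 4.944 to 29.5 against 3.15 to 4.935 FPKM for smooth muscle. The 4 lymphatic markers all had a higher mean in the ADV livers, with sums that overlapped (5.07 to 9.69 against 4.79 to 5.42 FPKM). All 11 macrophage, 10 lymphocyte, 9 stellate and 5 smooth muscle markers tested had a higher mean in the ADV livers and 0 of them passed the test by limma, and their part in the values of the endothelial genes was not tested. After scaling by the median ratio the medians were 0.09 and 0.01, and without A94 they were 0.05 and 0.02. The same 0 calls were found by limma-voom on fragments.

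The sinusoidal genes of the liver had a median log2 fold change of 0.10. Clec4g was at 41.9 ± 1.27 FPKM (SD, n = 4) in the LD mice and 46.4 ± 12.4 FPKM (SD, n = 4) in the ADV mice, with A94 below and A75, A91 and A115 above all LD mice, and a log2 fold change of 0.10 ± 0.18 (SE, adjusted p = 0.819) by limma. Stab1 was at 2.52, 2.96, 3.88 and 4.01 FPKM in the LD mice and 2.45, 2.75, 3.56 and 4.78 FPKM in the ADV mice, a log2 fold change of −0.00 ± 0.23 (SE, adjusted p = 0.994) by limma. Stab2 was at 3.14, 3.07, 3.46 and 4.51 FPKM in the LD mice and 3.31, 3.28, 4.19 and 5.74 FPKM in the ADV mice, a log2 fold change of 0.19 ± 0.20 (SE, adjusted p = 0.672) by limma. In both stabilins A115 was the highest liver and the groups overlapped.

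Oit3 was at 8.73, 7.30, 9.82 and 10.6 FPKM in the LD mice and 7.50, 8.87, 8.45 and 12.1 FPKM in the ADV mice and had a log2 fold change of 0.01. Gpr182 was at 11.5, 10.5, 12.4 and 13.8 FPKM in the LD mice and 10.5, 9.71, 9.47 and 15.1 FPKM in the ADV mice and had one of −0.12. Dnase1l3 was at 7.48, 8.77, 9.57 and 10.1 FPKM in the LD mice and 7.41, 8.90, 12.6 and 11.8 FPKM in the ADV mice and had one of 0.15. For each of the 3 genes the ADV mice spanned the range of the LD mice or more on at least 1 side. Lyve1 (values above) had a log2 fold change of 0.40 ± 0.51 (SE, adjusted p = 0.736) by limma with A94 and −0.10 without it.

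Nostrin, which binds endothelial nitric oxide synthase and moves it away from the cell surface, was the gene whose groups lay apart. Its level was 6.36, 7.20, 6.87 and 6.75 FPKM in L63, L65, L86 and L104 and 11.0, 9.51, 9.67 and 11.1 FPKM in A75, A91, A94 and A115. Every ADV liver was above every LD liver, 10.3 ± 0.846 FPKM (SD, n = 4) against 6.80 ± 0.346 FPKM (SD, n = 4), and it was the 1 gene of the 38 without overlap, where 8.84% of all genes had none. The log2 fold change was 0.59 ± 0.10 (SE), with an adjusted p of 0.21 by limma, an unadjusted p of 1.6e-04 by limma and a two-sided exact permutation p of 0.029, the smallest that 4 mice against 4 allow. Over the alternatives the adjusted p ranged from 0.0899 to 0.602 and the log2 fold change from 0.44 to 0.63. Nos3, the synthase itself, was at 0.470 to 0.817 FPKM in the LD livers and 0.375 to 0.832 FPKM in the ADV livers, with a log2 fold change of −0.08.

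Cd34 was at 0.632, 0.776, 1.23 and 0.698 FPKM in L63, L65, L86 and L104 and 2.28, 0.792, 6.02 and 2.03 FPKM in A75, A91, A94 and A115. A75, A94 and A115 were above all LD livers and A91 was among them, with a log2 fold change of 1.34 ± 0.49 (SE, adjusted p = 0.382 by limma, exact permutation p = 0.057). Without A94 the log2 fold change was 0.86.

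The genes of leukocyte adhesion and clotting had 4 of 4 tested members with a higher mean in the ADV livers, where 65.75% of all genes had one, and 0 of the 4 passed the test. Selp (P-selectin, also carried by platelets) was at 0.173, 0.225, 0.222 and 0.185 FPKM in the LD mice and 0.343, 0.190, 3.82 and 0.447 FPKM in the ADV mice, a log2 fold change of 1.27 ± 0.69 (SE, adjusted p = 0.474) by limma and 0.46 without A94. Vwf (von Willebrand factor) was at 0.302, 0.328, 0.459 and 0.395 FPKM in the LD mice and 0.562, 0.219, 3.32 and 0.616 FPKM in the ADV mice, a log2 fold change of 0.86 ± 0.60 (SE, adjusted p = 0.55) by limma and 0.19 without A94. In both genes A94 exceeded the other livers several-fold, and A75 and A115 lay above the LD mice while A91 lay within or below them. Icam1 was at 2.31 to 5.28 FPKM in the LD livers and 3.20 to 8.96 FPKM in the ADV livers, again highest in A94. The 8 platelet markers summed to 10.03 FPKM in the liver of A94 and 1.49 to 5.89 FPKM in the others, 6 of them at their highest in A94. These sums were also higher in every ADV liver (3.004 to 10.03 FPKM) than in every LD liver (1.49 to 2.61 FPKM). Their part in the levels of Selp and Vwf was not tested.

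Of the genes with a lower mean in the ADV livers, Prox1 had the largest difference. It was at 12.8, 13.7, 18.9 and 21.1 FPKM in the LD mice and 12.8, 12.0, 7.23 and 17.1 FPKM in the ADV mice, a log2 fold change of −0.47 ± 0.26 (SE, adjusted p = 0.476) by limma. Mmrn2, an extracellular matrix protein of endothelium, was at 1.76, 1.61, 2.12 and 2.08 FPKM in the LD mice and 1.14, 1.40, 2.29 and 1.77 FPKM in the ADV mice and had a log2 fold change of −0.22 ± 0.21 (SE, adjusted p = 0.644) by limma. The groups overlapped in both genes. Hepatocytes also make Prox1, and of 8 hepatocyte markers tested 6 had a lower and 2 a higher mean in the ADV livers. Their median log2 fold change was −0.13, and 0 were called by limma. The part of hepatocytes in the level of Prox1 was not tested. The 9 genes tested from a list of growth factor and other receptors had log2 fold changes from −0.07 for Kdr to 0.36 for Ednrb, the endothelin B receptor. Of the 9, 5 had a higher mean in the ADV mice, beside 65.75% of all genes.

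**Figure D3:**
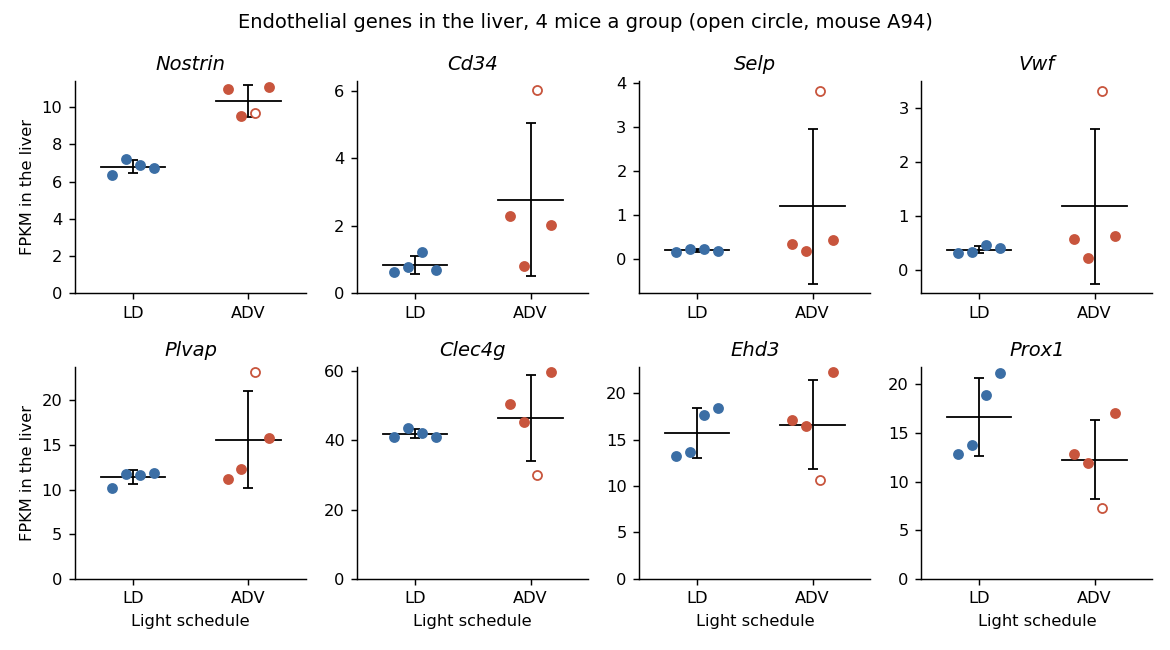
FPKM in the liver of 8 genes, 1 point per mouse, with the mean and SD of the 4 LD (blue) and the 4 ADV mice (red). Mouse A94 is drawn as an open circle. Nostrin is higher in each ADV mouse than in each LD mouse, and A94 is the highest ADV mouse for Cd34, Selp, Vwf and Plvap and the lowest for Clec4g, Ehd3 and Prox1.

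The liver of A94 stood apart over all genes, and among these genes it was also often the highest or the lowest. Of the 38 genes above the minimum, 23 (60.5%) were at their highest of the 8 livers in A94, where 49.7% of all genes were, and 6 (15.8%) were at their lowest, where 8.32% of all genes were. The 23 included junction and surface genes such as Pecam1, with 12.5 FPKM against 3.90 to 6.58 FPKM in the others. Plvap, which forms the diaphragms that close endothelial pores, was at 23.1 FPKM against 10.2 to 15.8 FPKM. The 6 at their lowest were Clec4g, Gpr182, Kdr, Ptprb, Ehd3 and Prox1. Of the 7 sinusoidal genes, Lyve1 and Dnase1l3 were at their highest and Clec4g and Gpr182 at their lowest in this liver. In this liver 10 of 11 macrophage, 10 of 10 lymphocyte and 9 of 9 stellate cell markers were at their highest. Of 8 hepatocyte markers, 4 were at their lowest and 0 at their highest. The part of these cell types in the endothelial values was not tested.

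The liver of A115 had 12 of the 38 genes (31.6%) at their highest, where 13.6% of all genes were, and 0 at their lowest, where 9.05% were. These were Stab1, Stab2, Clec4g, Oit3, Gpr182, Kdr, Flt1, Flt4, Nostrin, Thbd, Ptprb and Ehd3, that is 5 of the 7 sinusoidal genes and the 3 VEGF receptors. Kdr was at 9.58 FPKM there and 5.44 to 7.79 FPKM in the other livers, and Ehd3 at 22.3 FPKM and 10.6 to 18.4 FPKM. The summed level of this liver was 267 FPKM for macrophage, 5.79 FPKM for lymphocyte, 203 FPKM for stellate cell and fibroblast and 4.53 FPKM for platelet markers, each above every LD liver. The difference of this liver from the others had a Pearson correlation with the log2 of exon length of 0.42 over the 38 genes and 0.15 over all genes, against −0.21 to 0.25 over the 38 genes in the other livers. The part of either in these levels was not tested.

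Genes of the same pathways gave 0 calls in the liver as well. Of 8 ligands tested 0 had an adjusted p under 0.05 by limma and 2 had an unadjusted p under 0.05, as had 4 of 11 further sinusoidal genes, 2 of 32 signalling partners and 1 of 6 activation genes, beside 11.8% of all genes. Vegfa, the main ligand of Kdr, was at 19.8, 21.6, 22.6 and 22.6 FPKM in the LD mice and 13.7, 17.7, 17.1 and 17.4 FPKM in the ADV mice, every ADV liver below every LD liver, with a log2 fold change of −0.40 ± 0.11 (SE, adjusted p = 0.296) by limma. Edn1 (endothelin 1) had the highest log2 fold change among the ligands, 0.83 ± 0.36 (SE, adjusted p = 0.414) by limma. Of 11 further sinusoidal genes tested 0 were called and 9 had a higher mean in the ADV mice, where 65.75% of all genes had one. Among the 11, Rspo3, a Wnt agonist of central vein endothelium, had a log2 fold change of 0.72 ± 0.24 (SE, adjusted p = 0.357) by limma and Bmp2 one of −0.32 ± 0.17 (SE, adjusted p = 0.474) by limma. Of 32 intracellular and signalling partners tested 0 were called, with Cav1 (caveolin 1) at 0.86 ± 0.31 (SE, adjusted p = 0.372) by limma and Sox7 at −0.41 ± 0.32 (SE, adjusted p = 0.577) by limma. Of 6 activation genes tested 6 had a higher mean in the ADV mice, beside the same 65.75% of all genes, and 0 were called. Cx3cl1 (fractalkine) was at 0.137, 0.142, 0.121 and 0.247 FPKM in the LD mice and 0.408, 0.179, 1.01 and 0.261 FPKM in the ADV mice.

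In the kidney, limma with all 8 mice gave an adjusted p under 0.05 for 0 of the 37 genes tested, beside 0% of all 14452 genes. Lyve1, Clec4g and Oit3 lay below the minimum level. Selp was the 1 gene with an unadjusted p under 0.05, where 3.10% of all genes had one, and 0 genes of the 37 had groups without overlap, where 2.80% of all genes did. Of the 37, 23 had a higher and 14 a lower mean in the ADV mice, where 46.4% of all genes had a higher one. Their median log2 fold change was 0.03 beside −0.02 for all genes. With a pseudocount of 1 the counts were 28 and 9, where 51.1% of all genes had a higher mean.

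Selp was at 0.105, 0.0683, 0.187 and 0.0966 FPKM in L63, L65, L86 and L104 and 0.820, 0.0661, 0.593 and 0.412 FPKM in A75, A91, A94 and A115. A75, A94 and A115 were above all LD kidneys and A91 was level with the lowest, with a log2 fold change of 1.20 ± 0.52 (SE, adjusted p = 1 by limma, exact permutation p = 0.14). The value of Dnase1l3 (above), 1.04 ± 0.80 (SE, adjusted p = 1) by limma, rested on A94, and without that mouse it was 0.18. Ecscr, a surface protein of endothelial junctions and filopodia, was at 3.91, 3.53, 5.20 and 3.93 FPKM in the LD mice and 11.9, 2.74, 6.22 and 7.75 FPKM in the ADV mice, a log2 fold change of 0.61 ± 0.41 (SE, adjusted p = 1) by limma. For Ecscr A75, A94 and A115 were above and A91 below all LD kidneys.

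The lowest log2 fold changes in the kidney were those of Prox1, Ehd3 and Ednrb. Prox1 was at 2.04, 1.48, 1.24 and 0.913 FPKM in the LD mice and 1.36, 1.37, 1.09 and 0.366 FPKM in the ADV mice, a log2 fold change of −0.49 ± 0.42 (SE, adjusted p = 1) by limma. Ehd3 was at 11.0, 9.63, 11.0 and 9.78 FPKM in the LD mice and 11.2, 9.18, 10.1 and 3.73 FPKM in the ADV mice, a log2 fold change of −0.38 ± 0.33 (SE, adjusted p = 1) by limma. In both genes the difference lay in A115, and without it the log2 fold changes were −0.10 and −0.03. Ednrb was at 8.50, 6.49, 7.33 and 8.00 FPKM in the LD mice and 4.45, 5.09, 5.30 and 9.45 FPKM in the ADV mice, with A75, A91 and A94 below all LD kidneys and A115 above them, and a log2 fold change of −0.37 ± 0.25 (SE, adjusted p = 1) by limma.

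The kidney of A115 was at the lowest level of the 8 kidneys in 25 of the 37 genes (67.6%), where 55.4% of all genes were, and at the highest in 5 (13.5%), where 19.1% were. Plvap was at 29.2, 32.8, 39.8 and 43.2 FPKM in L63, L65, L86 and L104 and 76.4, 67.7, 96.2 and 4.86 FPKM in A75, A91, A94 and A115. Esam, an adhesion molecule of tight junctions, was at 6.78, 6.72, 9.61 and 10.2 FPKM in the LD mice and 16.2, 15.6, 18.5 and 1.16 FPKM in the ADV mice. Egfl7, a secreted protein of vessel assembly, was at 9.51, 11.6, 12.1 and 13.2 FPKM in the LD mice and 21.9, 18.3, 22.4 and 1.97 FPKM in the ADV mice. In these genes A75, A91 and A94 lay above and A115 below all 4 LD kidneys, so that the means of the groups on the log2(FPKM + 0.1) scale lay close together, with log2 fold changes of 0.14 ± 0.88 (SE) for Plvap, 0.09 for Esam and 0.01 for Egfl7.

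**Figure D4:**
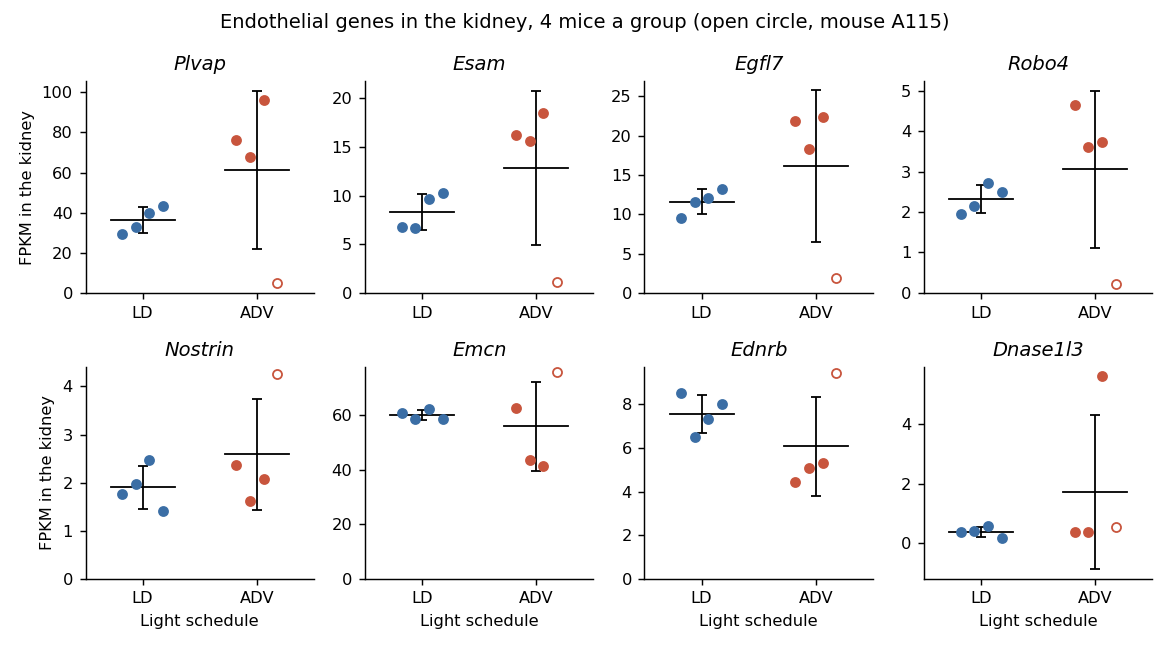
FPKM in the kidney of 8 genes, 1 point per mouse, with the mean and SD of the 4 LD (blue) and the 4 ADV mice (red). Mouse A115 is drawn as an open circle. For Plvap, Esam, Egfl7 and Robo4 the other 3 ADV mice are above and A115 is below every LD mouse, whereas A115 is the highest mouse for Nostrin, Emcn and Ednrb.

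Without A115, which leaves 3 ADV and 4 LD kidneys, 10 of the 37 genes had an adjusted p under 0.05 by limma. Of these, 9 were higher in the ADV mice, where 16.1% of all 14475 genes were, and 1 was lower, where 2.68% were. By limma the log2 fold changes were 1.14 ± 0.17 (SE, adjusted p = 0.0109) for Plvap, 1.02 for Esam, 0.95 for Stab1 and 0.84 for Egfl7. They were 0.76 for Robo4, a guidance receptor of vessels, 0.72 for Icam2, 0.67 for Eng (endoglin), 0.66 for Sox18 and 0.59 for Tie1. Ednrb was lower, at −0.60 ± 0.13 (SE, adjusted p = 0.0199) by limma. These genes were chosen after their values had been seen. In A75, A91 and A94 other measures lay outside the LD range as well. Mitochondrial transcripts took 9.43% to 13.1% of the fragments (15.7% to 18.02% in the LD kidneys), tubule markers summed to 3718 to 4606 FPKM (3179 to 3550) and smooth muscle and mesangial markers to 70.1 to 133 FPKM (38.0 to 59.5). Over all 8 kidneys 7 of 7 macrophage and 10 of 10 lymphocyte markers tested had a higher mean in the ADV mice, where 46.4% of all genes did, and 0 of them passed the test by limma. Their sums were highest in A94, at 424 and 102 FPKM, and A75 was above the LD kidneys in both. A91 was within the LD range for macrophages (63.6 against 41.1 to 111 FPKM) and below it for lymphocytes (7.46 against 7.72 to 12.9 FPKM). A115 had the lowest macrophage sum (29.4 FPKM) and was above the LD kidneys for lymphocytes. The part of these measures and markers in the endothelial values was not tested. The median log2 fold change of the 37 genes was 0.39 and that of all genes was 0.20 in this fit. With scaling by the median ratio as well, 10 genes were called, 8 higher and 2 lower (Emcn and Ednrb), beside 8.31% and 7.70% of all genes. Without both A94 and A115 3 genes were called, Plvap, Esam and Egfl7, beside 4.70% of all genes.

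The genes on either side of the A115 kidney differed in base composition. GC content was taken from the transcript of each gene whose length was nearest to the exon length in the tables, which gave a value for 37 of the 37 genes and for 96.2% of all genes tested in the kidney. The beginnings of the coding sequences of 4 genes, taken from the GENCODE M21 transcripts (GRCm38), show the contrast in 120 bases each, with G and C in capitals. Plvap and Esam were far below the other kidneys in A115, and Nostrin and Emcn were above them.
Plvap: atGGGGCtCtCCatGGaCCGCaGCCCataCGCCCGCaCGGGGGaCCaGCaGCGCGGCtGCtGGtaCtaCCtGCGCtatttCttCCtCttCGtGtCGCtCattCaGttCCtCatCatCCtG
Esam: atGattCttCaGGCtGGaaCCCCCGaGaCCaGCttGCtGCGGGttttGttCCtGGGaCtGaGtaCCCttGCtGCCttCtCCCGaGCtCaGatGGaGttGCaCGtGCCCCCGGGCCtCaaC
Nostrin: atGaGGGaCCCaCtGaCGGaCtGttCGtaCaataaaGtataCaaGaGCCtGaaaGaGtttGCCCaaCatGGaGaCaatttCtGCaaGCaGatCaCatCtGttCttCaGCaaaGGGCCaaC
Emcn: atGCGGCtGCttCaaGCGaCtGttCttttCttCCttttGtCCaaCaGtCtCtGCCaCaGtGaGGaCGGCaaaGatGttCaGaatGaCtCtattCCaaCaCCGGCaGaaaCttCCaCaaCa
Of the bases printed, 60.8% are G or C in Plvap, 60.0% in Esam, 45.8% in Nostrin and 47.5% in Emcn. For the whole transcripts the GC content was 60.6%, 53.7%, 44.7% and 45.1%.

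The difference of A115 from the mean of the other 7 kidneys, on the log2(FPKM + 0.1) scale, was −3.35 for Plvap, −3.16 for Esam, 0.47 for Emcn and 1.11 for Nostrin, and its Pearson correlation with GC content across genes was −0.82 over the 37 genes and −0.73 over all 13910 genes with a value. All genes were divided into 5 equal classes by GC content. In the class with the highest GC content (56.0% and above) the median difference was −2.11, and in the lowest class (up to 44.4%) it was 0.46. The 10 endothelial genes in the highest class had a median of −2.35, and the 2 in the lowest, Nrp1 and Ednrb, had 0.57. The genes of a kidney share 1 library, and these correlations describe that library.

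The other ADV kidneys leaned the opposite way. Over the 37 genes the correlation of each kidney's difference from the others with GC content was 0.59 for A75, 0.66 for A91 and 0.45 for A94, and it lay between −0.23 and 0.39 in the LD kidneys. For the mean of A75, A91 and A94 against the 4 LD kidneys it was 0.63 over the 37 genes and 0.60 over all genes, and the median log2 difference rose from −0.15 in the lowest to 0.64 in the highest class of all genes. When each kidney's trend with GC content was removed and A115 left out, 0 of the 37 genes and 0 of all 13929 genes had an adjusted p under 0.05 by limma, and 7 of the 37 had an unadjusted p under 0.05, where 18.8% of all genes had one. Plvap then had a log2 fold change of 0.41 ± 0.11 (SE, adjusted p = 0.131), Esam 0.69 ± 0.15 (SE, adjusted p = 0.104) and Ednrb −0.50 ± 0.12 (SE, adjusted p = 0.115) by limma. In the livers the largest such Pearson correlation in size over the 38 genes was −0.34, for A75, with a Spearman correlation of −0.48. Which of these differences belong to the mice and which to the preparation of the libraries was not tested.

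**Figure D5:**
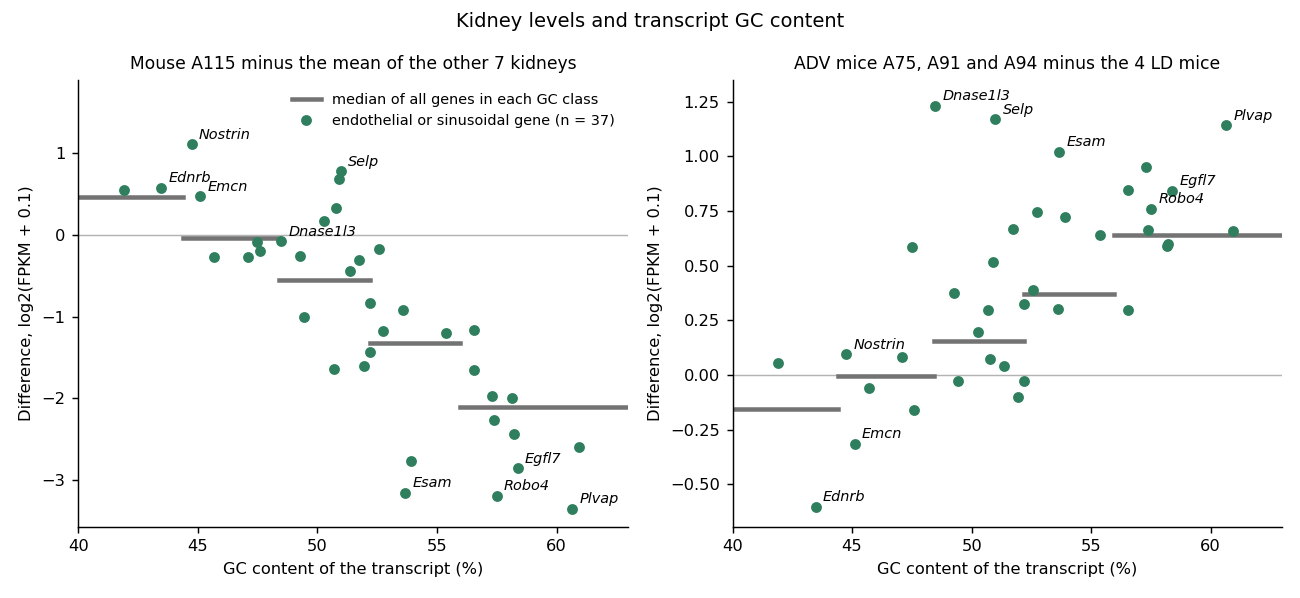
Kidney levels against the GC content of the transcript in percent, with 1 green point for each of the 37 genes tested and grey bars for the medians of all genes in 5 equal classes of GC content. Left, the log2 difference of mouse A115 from the mean of the other 7 kidneys, which falls from 0.46 to −2.11 in the medians of all genes. Right, that of the mean of the other 3 ADV mice from the 4 LD mice, which rises from −0.15 to 0.64.

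Partners of the pathways in the kidney also gave 0 calls by limma over all 8 mice. Apln (apelin, the ligand of Aplnr) was at 1.34, 1.06, 1.46 and 1.47 FPKM in the LD mice and 1.62, 1.60, 1.73 and 0 FPKM in the ADV mice, a log2 fold change of −0.74 ± 0.91 (SE, adjusted p = 1) by limma, with A115 at 0. Fcna had the highest log2 fold change among the further sinusoidal genes, at 0.0394, 0, 0.0445 and 0.169 FPKM in the LD mice and 0.212, 0.259, 2.31 and 0.120 FPKM in the ADV mice. Cxcl9, a chemokine for T cells, had the highest log2 fold change of the 6 activation genes, at 0.791, 0.655, 1.18 and 0.969 FPKM in the LD mice and 1.503, 0.935, 8.56 and 4.37 FPKM in the ADV mice, a value of 1.53 ± 0.63 (SE, adjusted p = 1) by limma. Cxcl9 and Fcna were highest in A94, the kidney with the highest sums of lymphocyte and macrophage markers, whose part was not tested.

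Whether the ADV effect differed between the organs was tested in 1 fit over all 16 libraries. Of the 39 genes 0 had an adjusted p under 0.05 by limma, where 0% of all 14379 genes did, and Ednrb was the 1 gene with an unadjusted p under 0.05, where 3.73% of all genes had one. Ednrb had a log2 fold change of 0.36 between ADV and LD livers and of −0.37 between the kidneys, a difference of 0.73 ± 0.34 (SE, adjusted p = 1) by limma. Nostrin had values of 0.59 for liver and 0.36 for kidney, a difference of 0.23 ± 0.33 (SE, adjusted p = 1) by limma, and in the kidney its mean rested on A115. Without A94 and A115, 5 genes had such a p (Tie1, Egfl7, Plvap, Robo4 and Ednrb), beside 5.25% of all genes, and with A115 left out and each library's trend with GC content removed 0 had.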

How the data were processed

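Poly(A)-selected RNA of the liver and kidney of 4 LD-conditioned and 4 ADV-conditioned mice was analysed, 1 stranded paired-end library per organ and mouse. The authors trimmed adaptors with Trimmomatic, aligned reads to mm10 with STAR 2.5.4b, dropped poorly mapped reads with SAMtools, quantified exons with Homer and deposited FPKM values (the column headers say RPKM) divided by each library's total. Multiplied by exon length and library total, 100% of the values above 0 fell on steps of 0.5 fragment, within 0.05 of a step. Genes with a mean above 0.5 CPM (fragments scaled to library size, computed from the FPKM) were tested on log2(FPKM + 0.1) with limma 3.58.1 in R 4.3.3, with its variance trend fitted to mean level, with Benjamini-Hochberg adjustment over all genes tested at 0.05. Each organ was fitted by itself for ADV against LD, and both organs in 1 fit for the other comparisons. Exact permutation tests were two-sided over the 70 assignments of the mice. DESeq2, which the study applied to counts, was not run.

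The 40 genes, the lists of pathway partners and cell type markers, and the tests were chosen with earlier results of these data known. By the rule for naming, all sinusoidal genes of the liver were described, with every other gene past an unadjusted p of 0.05 or without overlap, and the 3 largest log2 fold changes in each direction. For the organs it took the 5 largest differences in each direction. Partners were named where they had the highest or lowest value of their list in a comparison. Mouse numbers pair liver and kidney of the same animal. The deviations of the 2 organs from their group means had correlations of −0.02 to 0.55 across 12319 genes. Alternatives were pseudocounts of 0.5 and 1, no minimum level, a mean FPKM above 1, median ratio scaling, quantile normalization, leaving out mitochondrial genes, the mouse as a replicate block, limma-voom on fragment numbers, and the fits without each mouse in turn. GC content came from GENCODE M21 transcripts, and its trend was removed per library with lowess (span 0.3) as an alternative chosen after the data had been seen, as was leaving out A115 with median ratio scaling and leaving out A94 and A115 together. The fits were tested on simulated data.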

Additional observations from a re-analysis of the deposited data

Results flagged for a closer look

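Within each group of 4 mice, every endothelial gene tested was searched for a mouse that lay far from the other 3, by the gap to the nearest mouse over the whole range on the log2(FPKM + 0.1) scale (Dixon's ratio at its 95% critical value). Chance gives about 1 in 20 groups, or 7.5 of the 150 groups looked at, and 12 were found. The kidney of A115 made up 8 of them, all low. There, Plvap was at 4.86 FPKM (67.7 to 96.2 in the other ADV kidneys), Esam at 1.16 FPKM (15.6 to 18.5), Egfl7 at 1.97 FPKM (18.3 to 22.4) and Sox18 at 1.07 FPKM (8.35 to 10.3). Robo4 was at 0.231 FPKM (3.62 to 4.66), Tie1 at 1.79 FPKM (7.99 to 10.7), Nos3 at 0.236 FPKM (1.88 to 2.51) and Stab2 at 0.201 FPKM (0.362 to 0.400). All but Stab2 and Esam have transcripts in the highest GC class. The kidney of A94 had Dnase1l3 at 5.59 FPKM (0.376 to 0.537 in the other ADV kidneys).

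The other 3 lay in the LD livers. Lyve1 was at 1.01 FPKM in L65 (2.35 to 2.53 in the others), and in L63 Plvap was at 10.2 FPKM (11.6 to 11.9) and Ecscr at 0.964 FPKM (1.36 to 1.40).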

How the results depend on the processing

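In the liver, 0 of the 38 genes were called under each alternative run, while 26 of the 38 had the other sign in at least 1 of them. In the kidney 0 genes were called except without A115 (10, a range of 0 to 10 over the mice left out), without A115 with median ratio scaling (10), and without A94 and A115 (3). Leaving out 1 mouse moved the numbers for the organs to 20 to 34 in the LD mice and 21 to 32 in the ADV mice, A115 giving the highest, and the ADV count was 35 without A94 and A115 (beside 11383 of all 14216 genes) and 35 without A115 with GC correction (beside 10991 of 13909). For the difference between the organs in the ADV effect, 2 genes were called without A115 with median ratio scaling, beside 488 of all 14397 genes, and 5 without A94 and A115. With the mouse as a replicate block, 25 and 24 genes differed between the organs in the LD and ADV mice and 0 in the other comparisons, and among the 40 genes it changed no call beyond those named above. For the LD mice it gave 9 called further sinusoidal genes in place of 8 and 22 signalling partners higher in the kidney in place of 23. Leaving out an ADV mouse does not change the FPKM of the LD mice. Its effect on the LD counts comes through the rest of the fit, which shares its estimate of the spread. What lay behind the other changes was not tested.

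With A115 in, the kidney log2 fold changes of several genes lay near 0 and turned sign easily. With median ratio scaling they were −0.00246 for Tie1, −0.0029 for Eng and −0.00138 for Egfl7, and with limma-voom −0.00558 for Tie1 and −0.00649 for Egfl7. A pseudocount of 0.5 gave 0.0181 for Robo4 and 0.00454 for Icam2, and one of 1 gave 0.0839 for Robo4, 0.0146 for Sox18 and 0.0561 for Icam2. Without A115 with median ratio scaling the values were 0.575 for Robo4, 0.471 for Sox18 and 0.534 for Icam2, without A94 and A115 they were 0.803, 0.565 and 0.531, and without A115 with GC correction they were 0.195 for Robo4, 0.375 for Icam2 and −0.00862 for Tie1. Leaving out 1 mouse, the values ranged from −0.00095 to 0.951 for Stab1, −0.246 to 0.591 for Tie1, −0.275 to 0.665 for Eng, −0.305 to 0.843 for Egfl7, −0.275 to 1.02 for Esam, −0.284 to 1.14 for Plvap, −0.523 to 0.76 for Robo4, −0.392 to 0.659 for Sox18 and −0.464 to 0.722 for Icam2, the highest of each without A115. Depth limited Clec4g, Oit3 and Lyve1 in the kidney and Aplnr and Sele in the liver, which had 0 to 21 fragments a library.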

Other observations

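Most genes of arteries and veins outside the 40 were higher in the kidney of the LD mice, as 55.3% of all genes tested were. Of 6 arterial genes tested, 5 were higher in the kidney with an adjusted p under 0.05 by limma and 0 higher in the liver. Sema3g, a semaphorin of arterial endothelium, was at 0.825 to 17.7 FPKM in the kidneys and 0.0111 to 0.0719 FPKM in the livers, with the kidney of A115 the lowest of the kidneys. Of 3 venous genes tested 2 were higher in the kidney, and Nr2f2 (COUP-TFII, a transcription factor of veins) was at 17.0 to 34.8 FPKM there and 3.37 to 5.90 FPKM in the liver. Among the signalling partners, 23 of 34 were higher in the kidney and 1 in the liver. The latter was S1pr1, a receptor for sphingosine 1-phosphate, at 13.1 to 27.6 FPKM in the livers and 4.64 to 7.25 FPKM in the kidneys. Of 6 activation genes tested 4 were higher in the kidney and 1 in the liver, Cxcl9, in the LD mice. In the ADV mice 3 of the 6 were higher in the kidney and 0 in the liver, beside 51.2% and 11.2% of all genes. Cx3cl1, a membrane-bound chemokine with the largest difference of the activation genes, was at 6.89 to 57.9 FPKM in the kidneys and 0.121 to 1.01 FPKM in the livers. Of the 4 lymphatic markers 3 were higher in the kidney and 1, Reln, in the liver in the LD mice, and in the ADV mice 1 was higher in the kidney and 1 in the liver. Over both conditions they summed to 4.79 to 9.69 FPKM in the livers and 6.99 to 17.8 FPKM in the kidneys.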
